A study of Mus musculus with 24 samples.

Results

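The cerebral cortex of mice that lack Tatdn1 was compared with that of wild-type mice on 12 of the 24 Mouse Clariom S HT arrays of the study, the other 12 being of cardiac ventricle. The 12 arrays were chosen by their tissue label, brain cortex. They are of 6 tatd-/- mice (Tatdn1-/-, both alleles disrupted) and 6 wild-type mice (Tatdn1+/+). Each genotype had 3 males and 3 females, all aged 2 months, with 1 array per mouse. All 12 mice were untreated, were of a C57BL/6J background and were killed by cervical dislocation. In the tatd-/- mice exon 3 had been removed from a floxed allele by a Cre recombinase under the ubiquitous CAG promoter, and the transgene was then bred out. The deletion was therefore not limited to the brain or to any cell type, and it came from a single targeted line. Each gene-level probe set was described by its log2 level on each array, and 22206 such probe sets were tested, of which 19572 carry a single gene symbol.

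TATDN1 belongs to the TatD family, metal-dependent hydrolases that are conserved from bacteria to mammals and of which several members degrade DNA. The cerebral cortex is a mixture of excitatory and inhibitory neurons, astrocytes, oligodendrocytes, microglia and vascular cells. Many of its neuronal genes are switched on within minutes to hours of synaptic activity through calcium, MAP kinases and the transcription factors CREB and SRF. Their level in a tissue sample can therefore depend on the state of the animal before death, whatever its genotype. In such a tissue extract, fewer cells of a type and less RNA per cell cannot be told apart.

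The labels were first set against the data. The excitatory cortical marker Slc17a7, a vesicular glutamate transporter, lay between 10.7 and 11.2 log2 units on the cortex arrays, and the cortical transcription factor Tbr1 lay between 8.59 and 9.23, against 1.43 to 2.92 on the ventricle arrays. The cardiomyocyte myosin Myh6 stayed between 1.65 and 2.60 in cortex and lay between 10.96 and 11.46 in ventricle. The Y-linked genes Kdm5d, Uty and Eif2s3y were higher on every array labelled male than on every array labelled female (for Kdm5d, 2.61 on the lowest male and 1.89 on the highest female array). A pair of tatd-/- arrays stood apart. Male M78-1 had the smallest array weight of the 12 (0.243, the others 0.486 to 2.113), the highest mean of the background controls (2.08, the others 1.54 to 1.84) and the lowest median over the gene-level probe sets (3.45, the others 3.49 to 3.67). Female F77-3 had wild-type levels of a gene cluster on chromosome 4 at which the other 5 tatd-/- mice were low, and main results are given without M78-1 or F77-3 where leaving that mouse out changed them.

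Of 22206 probe sets, 2 were lower in tatd-/- cortex at an adjusted p under 0.05 (0.00901%) and 0 were higher (0%) in limma's moderated test of 6 against 6 arrays. An unadjusted p under 0.05 was reached by 1551 probe sets (6.98%), of which 531 had a higher mean in tatd-/- cortex (2.39% of all) and 1020 a lower mean (4.59%). The groups did not overlap for 128 probe sets (0.576%), 28 of them higher (0.126%) and 100 lower (0.45%) in tatd-/- mice. The median difference over all probe sets was -0.02 log2 units, and 46.1% had a higher mean in tatd-/- cortex. The share with the higher mean among those under the unadjusted threshold was 34.2%, and it depended on the scaling, being 48.5% after quantile normalization of the cortex arrays and 58.1% after each array had been centred on its median. Below, a gene is said to have fallen or risen only where it passed the adjusted threshold, and 3 values given for a group are the lowest, the median and the highest log2 level of its 6 arrays. Counts of list members at an unadjusted p under 0.05 are to be read beside the shares of 2.39% higher and 4.59% lower. Most genes named below were picked by their small p, which favours groups that do not overlap.

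**Figure D1:**
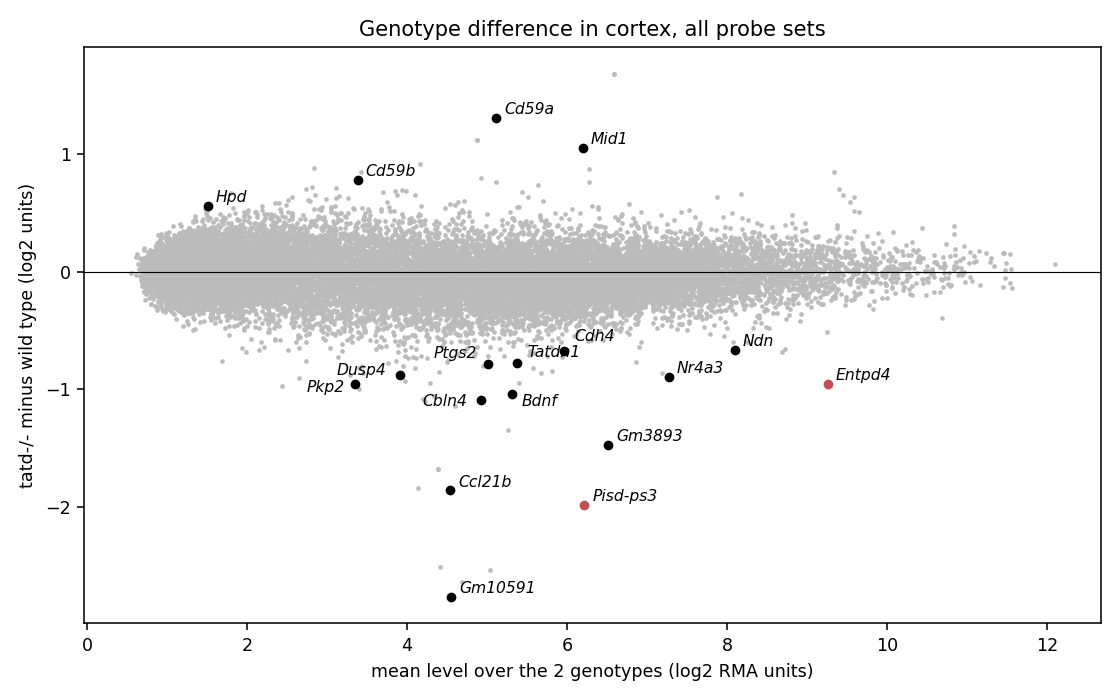
Difference between the genotypes (tatd-/- minus wild type, log2 units, vertical axis) against the mean level over both genotypes (log2 RMA units, horizontal axis) for 22206 probe sets on 12 cortex arrays. Red points are the 2 probe sets past the adjusted threshold, Pisd-ps3 (-1.98) and Entpd4 (-0.95), black points are other genes described in the text, and grey points are the remaining probe sets, some of which have no gene symbol here.

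Tatdn1 itself had the levels 5.29, 5.81 and 6.16 on the wild-type arrays and 4.44, 5.11 and 5.31 on the tatd-/- arrays. All tatd-/- arrays but that of male M77-1 lay below the lowest wild-type array, that of female F76-1. The difference of -0.78 (standard error 0.17) had an adjusted p of 0.168 in limma and an exact permutation p of 0.00433 (two-sided), and it was -0.61 in males and -0.95 in females. In ventricle the difference of Tatdn1 was -1.36 (adjusted p = 0.0156), and the difference between the tissues had an adjusted p of 0.462. Signal of the probe set thus remained in tatd-/- cortex. The deletion was designed to shift the reading frame and give a stop codon in exon 4. On western blots the paper found no TATDN1 protein in the adult knockout tissues it examined, brain among them. The sources used here do not give the positions of the probes relative to exon 3, so the probe set checks the deletion only in part. Among 18 measured genes of the TatD family and other DNA nucleases, only Tatdn1 had an unadjusted p under 0.05. The median difference of that list was 0.02, and 6 members averaged below the background controls.

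The probe set of Pisd-ps3, a pseudogene of the mitochondrial phosphatidylserine decarboxylase, fell by 1.98 log2 units (standard error 0.19, adjusted p = 0.000327). It gave 6.73, 7.16 and 7.89 on wild-type arrays and 4.93, 5.11 and 5.60 on tatd-/- arrays. The groups were more than 1 log2 unit apart, and the difference was -1.84 in males and -2.13 in females. Entpd4, a nucleotide-hydrolysing enzyme of the Golgi and lysosome, fell by 0.95 (standard error 0.13, adjusted p = 0.0167). Its levels were 9.55, 9.74 and 9.93 in wild-type and 8.28, 8.89 and 8.96 in tatd-/- cortex, with female F77-2 the lowest. A further Entpd4 probe set had a difference of -0.65 (adjusted p = 0.359). In ventricle Pisd-ps3 had a difference of -1.61 (adjusted p = 0.122) and Entpd4 one of -0.65 (adjusted p = 0.0467). Without any one of the wild-type mice M75-0, M75-1 and F76-2 or the tatd-/- mouse F77-1, Entpd4 no longer passed the adjusted threshold, with a difference between -0.92 and -0.97.

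A cluster of chemokine and other genes on chromosome 4 held large negative differences. Within chr4:41942295-42859820 (GRCm38.p6), a stretch that was delimited after the values had been seen, 14 probe sets with 11 symbols were measured, and 13 of them had a lower mean in tatd-/- cortex at an unadjusted p under 0.05. The exception was Ccl19, a chemokine that attracts lymphocytes and dendritic cells, which was near background in cortex (1.22 to 1.94 in wild-type mice, difference -0.09). Of the 14, 2 probe sets, those of a Ccl21b and a Gm10591 entry, had identical values, so the counts given for this stretch hold the same measurement more than once. The predicted gene Gm10591 gave 5.16, 5.91 and 6.87 on wild-type arrays, and 2.19 to 2.91 on 5 of the 6 tatd-/- arrays. Female F77-3, at 6.18, was the only tatd-/- mouse within the wild-type range. Over all 6 mice the difference was -2.77 (adjusted p = 0.0794), and without F77-3 it was -3.37 (adjusted p = 1.53e-06).

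The same split was seen for other probe sets of the cluster, though not for all. Ccl21b, whose protein guides lymphocytes and dendritic cells into lymphoid tissue, was at 4.69, 5.51 and 6.09 in wild-type cortex, at 2.80 to 3.39 in 5 tatd-/- mice and at 5.48 in F77-3. Ccl21c had identical values on all arrays, so these probe sets cannot be told apart. Gm3893 gave 6.81 to 7.49 in wild-type mice, 5.12 to 5.71 in 5 tatd-/- mice and 7.28 in F77-3. For Gm13304 the 5 mice lay between 2.13 and 2.99 and F77-3 at 6.06, against 4.94 to 6.59 in wild-type mice. Ccl21a was at 3.17 to 3.93 in the 5 mice, at 4.96 in F77-3 and at 4.24 to 5.40 in wild-type mice. One of the Fam205a2 probe sets gave 4.79 to 5.31, 6.23 and 5.74 to 6.30 in the same order. In the other Fam205a2 probe set F77-3, at 4.56, lay below the lowest wild-type array (4.78). The same held for Fam205a3 (4.252 against 4.266), Fam205a4 (4.174 against 4.205) and Gm21953 (8.26 against 8.38). For Gm21953 F77-3 lay among the other 5 tatd-/- mice (7.86 to 8.48).

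In 9 of the 14 probe sets the 5 other tatd-/- mice lay below every wild-type mouse while F77-3 lay within their range. Over all 22206 probe sets this arrangement occurred 43 times, of which 25 were placed elsewhere in the genome and 9 have no place here. Without F77-3, 16 probe sets were called lower, 9 of them in this cluster, 3 without a place here, and the others those of Ccl21c, Dusp4, Entpd4 and Pisd-ps3. In ventricle the groups overlapped for the cluster's probe sets, with Gm10591 at 6.92 to 7.98 in wild-type and 6.46 to 8.34 in tatd-/- mice. The Fam205a probe sets and Ccl19 were near the background controls there, so their overlap says little. In wild-type ventricle Fam205a4 was at 1.10 to 2.03 and Ccl19 at 1.23 to 1.86. The near-identical copies of Ccl21 and Fam205a genes in this stretch share sequence, so the array cannot assign the signal to 1 copy.

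**Figure D2:**
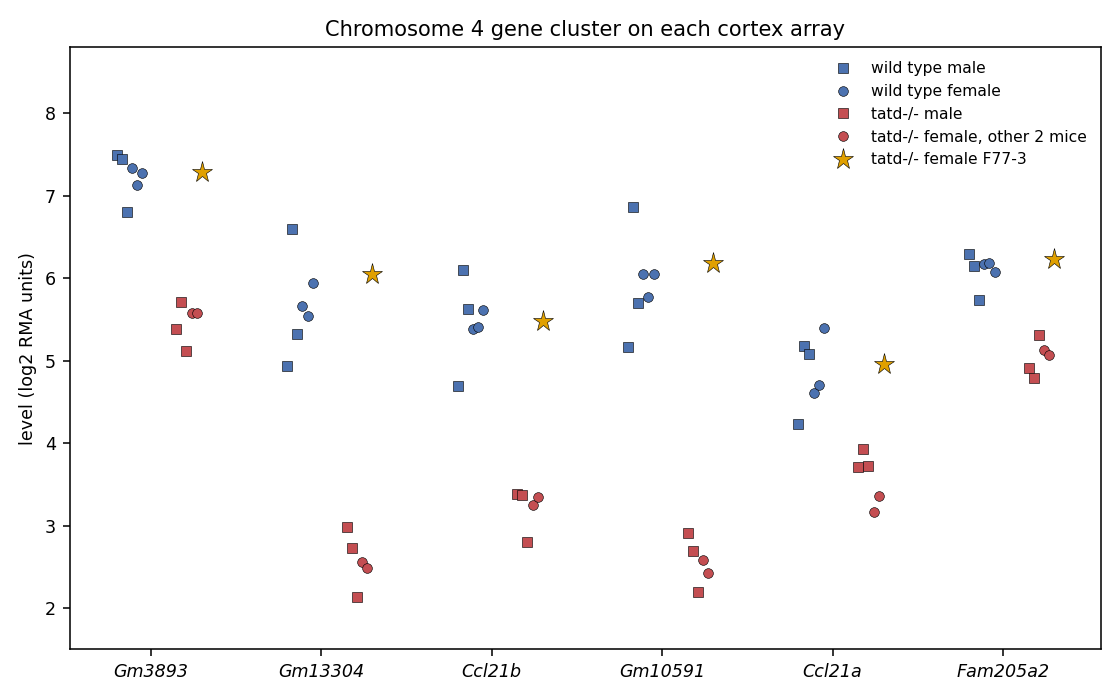
Log2 level of 6 genes of the chromosome 4 cluster (vertical axis, log2 RMA units) on each of the 12 cortex arrays, with squares for males and circles for females. The 5 other tatd-/- mice (red) lie below the wild-type mice (blue) for each gene, and the tatd-/- female F77-3 (star) lies within the wild-type range, for example at 6.18 for Gm10591.

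Outside this cluster, 4 genes with a lower mean acted in signalling, cell contact and neuronal differentiation. Dusp4, a nuclear phosphatase that switches off ERK, gave 4.06, 4.40 and 4.58 in wild-type and 3.22, 3.40 and 3.92 in tatd-/- cortex. Every tatd-/- array lay below every wild-type array, the difference was -0.88 (adjusted p = 0.0763), and without F77-3 it was -0.96 (adjusted p = 0.00613). Pkp2, a desmosomal plaque protein, was at 3.39, 3.78 and 4.36 against 2.36, 2.93 and 3.19. The R-cadherin gene Cdh4 was at 6.05, 6.37 and 6.46 against 5.40, 5.59 and 5.91. For Ndn, an imprinted gene expressed in postmitotic neurons, the levels were 8.18, 8.41 and 8.65 against 7.50, 7.80 and 7.99. None of these 3 overlapped between the genotypes, and the differences of -0.96, -0.67 and -0.67 each had an adjusted p of 0.0794, so they did not pass the threshold. They and Dusp4 were picked by their small p, which favours such separation, seen in this direction for 0.45% of all probe sets. Ndn and Cdh4 had like differences in both sexes (-0.70 in males and -0.64 in females for Ndn, -0.69 and -0.66 for Cdh4). In ventricle Ndn had a difference of -0.05 and Cdh4 of -1.12 (adjusted p = 0.366).

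Among the genes with a higher mean in tatd-/- cortex, Mid1 and Cd59a had the smallest p. Mid1, an X-linked ubiquitin ligase of the microtubules whose gene lies at the boundary of the pseudoautosomal region in the mouse, was at 5.25, 5.59 and 6.14 in wild-type and at 6.25, 6.74 and 7.04 in tatd-/- cortex. Every tatd-/- array lay above every wild-type array, and the difference was 1.05 (standard error 0.17, adjusted p = 0.0763), with 0.73 in males and 1.37 in females. Cd59a, a GPI-anchored inhibitor of the complement membrane attack complex, was at 3.92, 4.51 and 4.83 in wild-type cortex. Of the tatd-/- mice 5 lay between 5.86 and 6.23, and M78-1 lay at 4.66, within the wild-type range. Over all 6 the difference was 1.31 (standard error 0.22, adjusted p = 0.0794), and without M78-1 it was 1.53 (adjusted p = 0.000161). In the same fit without M78-1 the difference of Mid1 was 1.15 (adjusted p = 0.0158), and 2 probe sets were then called higher and 3 lower.

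Cd59b, the paralogue next to Cd59a, was at 2.71, 2.94 and 3.38 in wild-type and 3.60, 3.72 and 4.05 in tatd-/- cortex, with no overlap, a difference of 0.78 and an adjusted p of 0.0794. The neighbouring genes are alike in sequence, and how the probes divide their signal is unknown here. Cd59a had a difference of 0.37 in ventricle (adjusted p = 0.686) and Cd59b one of 0.38 (adjusted p = 0.608). Among 11 measured complement genes and regulators, only these 2 had an unadjusted p under 0.05, with a median difference of 0.03 for the list. The mean level of that list lay between 5.10 and 5.27 on all 6 tatd-/- arrays, above the highest wild-type array (5.08). For the 9 genes other than Cd59a and Cd59b, a choice made after the data were seen, the genotypes overlapped, at 5.17 to 5.38 in tatd-/- and 5.22 to 5.38 in wild-type mice. C4b, the complement component that opens the classical pathway's convertase, was at 3.79, 4.07 and 4.37 in wild-type mice and at 4.12 to 4.33 in 5 tatd-/- mice, with M78-1 at 5.61. Cd55, which dissociates the convertases, had a difference of -0.44 (adjusted p = 0.758).

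The other genes with the smallest p in this direction had differences between 0.41 and 0.63 and adjusted p-values of 0.168 or more. Hpd, an enzyme of tyrosine breakdown, was at 0.92, 1.25 and 1.49 in wild-type and 1.58, 1.79 and 2.11 in tatd-/- mice, and these levels were below the background controls on 6 wild-type and 2 tatd-/- arrays. Notch2, a receptor of cell fate signalling, was at 3.81, 4.40 and 4.55 against 4.65, 4.85 and 5.29. Sema7a, a GPI-anchored semaphorin that acts on axons and immune cells, was at 6.89, 7.08 and 7.32 against 7.40, 7.56 and 7.70. The groups did not overlap for these 3 genes, nor for Rufy4 and for the nucleotide hydrolase Nudt16. All 5 were picked by their small p, which favours such separation, seen in this direction for 0.126% of all probe sets. They overlapped for Gm3558 and for Ccp110, a centriolar protein that restrains the growth of cilia.

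**Figure D3:**
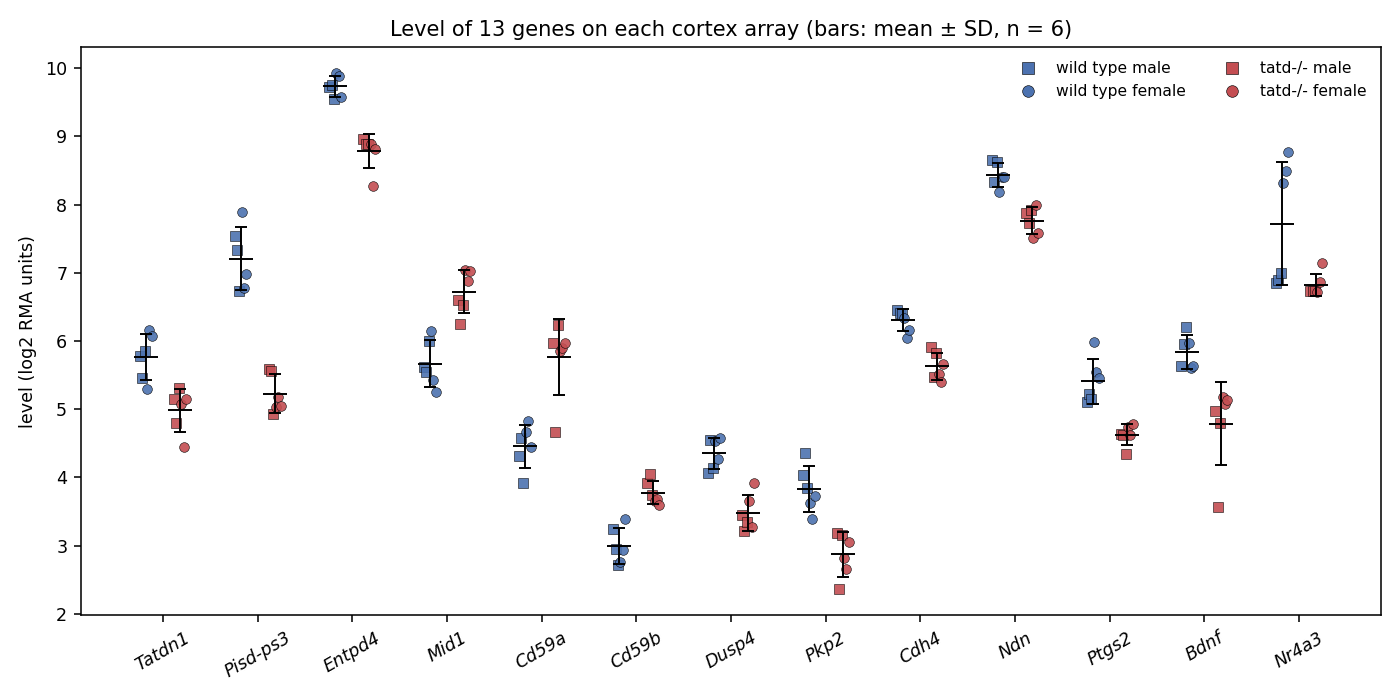
Log2 level (vertical axis, log2 RMA units) of 13 genes on each of the 12 cortex arrays, with wild-type mice in blue, tatd-/- mice in red, males as squares and females as circles, and bars for the mean and SD of 6 arrays. Pisd-ps3 and Entpd4 separate the genotypes, the low red square of Cd59a (4.66) and of Bdnf (3.57) is mouse M78-1, and the high blue circles of Nr4a3 (8.32 to 8.77) are the wild-type females.

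Lag3, Cbln4 and F2rl2 are described because they, like Cd59a, had been chosen for RT-qPCR in cortex. The study had picked such genes from the top of its own list from these arrays. By RT-qPCR it reported higher Lag3 and lower Cbln4 and F2rl2 in the knockout cortex. It also reported a higher level of a gene that its main text prints as Cd49a and its supplement lists as Cd59a. Cbln4, a secreted protein that links presynaptic neurexins to postsynaptic partners, was at 5.17, 5.44 and 5.70 in wild-type and 2.75, 4.56 and 5.20 in tatd-/- mice. M78-1 was the lowest, and M77-1 was the only tatd-/- mouse above the lowest wild-type array. The difference was -1.10 (adjusted p = 0.361), and -0.77 without M78-1 (adjusted p = 0.116). F2rl2, a protease-activated receptor, was at 3.54, 3.94 and 4.25 against 2.16, 2.99 and 3.58, with a single tatd-/- array above the lowest wild-type array and a difference of -0.99 (adjusted p = 0.227). Lag3, an inhibitory receptor of T cells, was at 1.76, 2.19 and 2.92 against 2.60, 2.90 and 3.06, which is close to background, with a difference of 0.63 (adjusted p = 0.41).

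Activity-induced transcription factors had lower means throughout. All 23 measured members had a lower mean in tatd-/- cortex, whereas 46.1% of all probe sets had a higher mean. The median difference was -0.27 against -0.02 over all probe sets. Of the 23 members, 8 were lower at an unadjusted p under 0.05, where the share over all probe sets was 4.59%, and 0 passed the adjusted threshold. The mean level of the list differed between the male and the female wild-type mice, whose animal codes also begin with different numbers, so that sex and whatever the numbers mark cannot be told apart there. It was 4.88 to 5.23 in the 3 wild-type males and 5.82 to 5.92 in the 3 wild-type females, and in tatd-/- mice it was 4.82 to 4.999 in males and 5.09 to 5.52 in females. The median difference of the list was -0.17 in males and -0.49 in females, and -0.20 without M78-1.

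Nr4a3, an orphan nuclear receptor induced by CREB, showed this most plainly. Its levels were 6.84, 6.90 and 7.0 in the wild-type males, 8.32, 8.49 and 8.77 in the wild-type females, and between 6.72 and 7.14 in all 6 tatd-/- mice. The wild-type females thus stood above all other mice. The difference between the genotypes was -0.18 in males and -1.62 in females, and the difference between the sexes had an adjusted p of 0.238. Over both sexes it was -0.90 (adjusted p = 0.514). In ventricle the difference of Nr4a3 was -0.92 (adjusted p = 0.621). The AP-1 subunit gene Fosl2 had a like arrangement, with 5.73 to 6.11 in the wild-type females, 4.93 to 5.47 in the wild-type males and 4.75 to 5.41 in tatd-/- mice. Its difference was -0.60 (adjusted p = 0.43). Ier2, an immediate early gene, was at 3.12, 3.84 and 4.12 against 2.62, 3.20 and 3.64, and its difference was -0.63 in males and -0.40 in females.

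Many of these genes are targets of CREB, and the core of its binding site was looked for in the promoters. The letters TGACG, or CGTCA on the other strand, were found in the 250 bases before the start of 17.8% of 32851 mouse promoters (RefSeq, GRCm38.p6) and of 14 of the 19 transcription factors of the list with a promoter sequence. Of the secreted and synaptic effectors below it was 7 of 15, of the MAP kinase phosphatases and ERK feedback genes 5 of 14, and of the clock genes 6 of 19. The stretches of Nr4a3, Nfil3 and Dusp5 are shown because these named members hold the letters, with each match in capitals. The table takes 1 transcript start per entry, and for Nr4a3 and Nfil3 it lies inside the annotated gene, downstream of its outermost start. A match is a match of letters and was not tested as a binding site. The stretches lie at chr4:48045055-48045182 (plus strand, 4 matches), chr13:52981074-52981118 (minus strand) and chr19:53529070-53529114 (plus strand).
Nr4a3: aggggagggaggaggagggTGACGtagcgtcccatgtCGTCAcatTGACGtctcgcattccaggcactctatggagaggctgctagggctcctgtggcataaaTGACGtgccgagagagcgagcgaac
Nfil3: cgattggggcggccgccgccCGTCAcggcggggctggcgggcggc
Dusp5: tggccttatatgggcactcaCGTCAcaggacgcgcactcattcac

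Activity-induced synaptic and secreted effectors had the lowest median of all 49 lists, -0.36. At an unadjusted p under 0.05, 11 of 22 measured members were lower, where the share over all probe sets was 4.59%, and 0 passed the adjusted threshold. The mean level of the list was 6.49 to 6.62 in wild-type males, 6.80 to 6.85 in wild-type females, 6.21 to 6.30 in tatd-/- males and 6.35 to 6.52 in tatd-/- females. All tatd-/- arrays but that of F77-3 lay below the lowest wild-type array. Ptgs2, the inducible cyclooxygenase, was at 5.11, 5.34 and 5.98 in wild-type and 4.34, 4.63 and 4.78 in tatd-/- cortex. The genotypes were separate, and the difference of -0.78 (standard error 0.15, adjusted p = 0.0794) was -0.62 in males and -0.95 in females.

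Bdnf, the neurotrophin that strengthens synapses after activity, was at 5.60, 5.80 and 6.21 in wild-type mice. In 5 tatd-/- mice it was at 4.80 to 5.18 and in M78-1 at 3.57, so that no array of 1 group reached into the other. The difference was -1.04 (adjusted p = 0.165), and -0.80 without M78-1 (adjusted p = 0.0599). Inhba, a subunit of activin, was at 6.03, 6.22 and 6.39 against 5.18, 5.56 and 6.07, and Gadd45b, which takes part in DNA demethylation, was at 4.48, 4.84 and 5.23 against 3.92, 4.25 and 4.63. Both overlapped between the genotypes by 1 tatd-/- array, with differences of -0.60 and adjusted p-values of 0.268 and 0.295. Among 6 measured neurotrophins and neurotrophin receptors only Bdnf reached an unadjusted p under 0.05, and the list had a median of 0.05. Sort1, the sorting receptor of pro-neurotrophins, had a difference of 0.19.

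The feedback inhibitors of MAP kinase signalling had a median difference of -0.19. At an unadjusted p under 0.05, where the share over all probe sets was 4.59%, 4 of 16 were lower. Besides Dusp4 these were Spry4, Dusp5 and Spred3, which restrain ERK at different steps of its cascade. Spry4 was at 4.05, 4.41 and 4.80 in wild-type and 3.21, 3.80 and 4.23 in tatd-/- mice (difference -0.59, adjusted p = 0.41). Dusp5 was at 4.51 to 5.37 in wild-type males and 5.62 to 5.92 in wild-type females against 3.81 to 4.68 and 4.67 to 5.40 in tatd-/- mice. The salt-inducible kinases and CREB coactivators had a median of -0.06, and 3 of 15 were lower at an unadjusted p under 0.05 (5 without M78-1). Their mean level was below the lowest wild-type array (7.165) on all 6 tatd-/- arrays (6.92 to 7.155), but the genotypes nearly touched. After each array had been centred on its median, the median of the list was -0.01, against 0.03 over all probe sets. Sik2, a kinase that holds CREB coactivators in the cytoplasm, was at 6.09, 6.25 and 6.74 against 5.02, 5.67 and 5.99, without overlap (difference -0.73, adjusted p = 0.259). Sik1 and Camk1g, the latter a calmodulin-dependent kinase, had differences of -0.71 and -0.39 and overlapped.

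**Figure D4:**
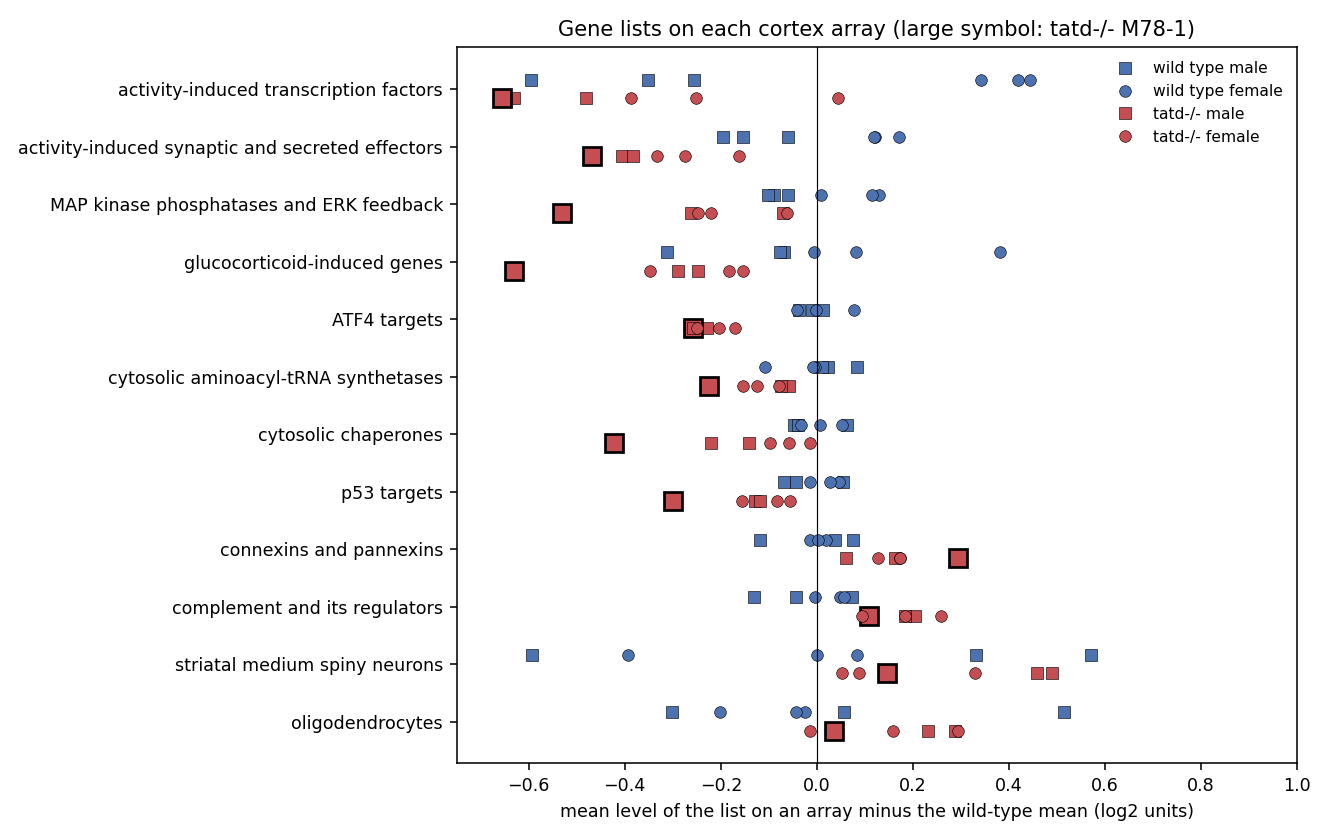
Mean level of 12 gene lists on each cortex array, given as its difference from the wild-type mean of the list (horizontal axis, log2 units), with squares for males, circles for females and a large symbol for M78-1. For the activity-induced transcription factors the 3 wild-type females (blue circles) lie above the other mice, and for the ATF4 targets all tatd-/- arrays (red) lie below all wild-type arrays.

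Genes induced by glucocorticoids, the stress hormones that peak before the active phase of a mouse, had lower means in all 17 measured cases. Over all probe sets 46.1% had a higher mean. The median of the list was -0.28, and 4 were lower at an unadjusted p under 0.05, where the share over all probe sets was 4.59%. Their mean level lay between 6.09 and 6.79 in wild-type mice, where female F76-3 was highest, and between 5.78 and 6.25 in tatd-/- mice, where M78-1 was lowest. In ventricle the median of the same list was -0.29. Cdkn1a, the inhibitor of cyclin-dependent kinases p21, was at 6.81, 6.98 and 7.93 in wild-type and at 6.37, 6.45 and 6.72 in tatd-/- cortex. The genotypes were separate, 2 wild-type females lay at 7.89 and 7.93, and the difference was -0.77 (adjusted p = 0.295). Arrdc2, Errfi1 and Per1 had differences of -0.71, -0.48 and -0.35, and for Per1 it was -0.03 in males and -0.67 in females.

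Clock genes were split, with a median of -0.06 (-0.02 without M78-1). At an unadjusted p under 0.05, 1 of 22 was higher and 4 were lower. Per2, a repressor of the clock, was at 5.58, 5.93 and 6.40 in wild-type mice, at 5.18 to 5.56 in 5 tatd-/- mice and at 3.96 in M78-1. The difference was -0.82 (adjusted p = 0.372), or -0.58 without M78-1. Usp2, a rhythmic deubiquitinase, had a higher mean, with 7.45, 7.83 and 8.26 against 8.11, 8.33 and 8.46 (difference 0.50, adjusted p = 0.372). The repressors Nfil3 and Bhlhe40 had differences of -0.38 and -0.33. The sources used here do not give the hour at which each mouse was killed.

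Targets of ATF4, the transcription factor of the integrated stress response, had a mean level that did not overlap between the genotypes. The mean level of 30 measured genes was 5.23 to 5.35 on the wild-type arrays and 5.01 to 5.10 on the tatd-/- arrays. The median difference was -0.21 (-0.19 without M78-1). A lower mean was seen for 24 and a higher mean for 6, among them Ddit3 (0.04) and Trib3 (0.11). At an unadjusted p under 0.05, 11 were lower and 0 higher, where the shares over all probe sets were 4.59% and 2.39%. The adjusted threshold was passed by 0. In ventricle the median was 0.03. Atf4 itself was at 8.004, 8.15 and 8.68 in wild-type and 7.64, 7.77 and 7.80 in tatd-/- cortex (difference -0.48, adjusted p = 0.33). Its groups did not overlap, nor did those of Sesn2, a stress-induced inhibitor of TORC1 signalling, at 3.52, 3.61 and 4.06 against 3.01, 3.23 and 3.50. Nupr1, a small chromatin protein induced by stress, was at 4.65, 4.99 and 5.28 against 3.97, 4.27 and 4.72, with an overlap of 1 array and a difference of -0.70 (adjusted p = 0.106). Slc7a3, a transporter of cationic amino acids, had a difference of -0.72 (adjusted p = 0.361).

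The composite element read by ATF4 with C/EBP proteins was searched as TGATGNAA, or TTNCATCA on the other strand, in the same 250 bases. It was present in 3.45% of all promoters, in 5 of 26 ATF4 targets and in 2 of 11 aminoacyl-tRNA synthetases with a promoter sequence. The stretch of Nupr1 is shown as that of the named target that holds it, at chr7:126625553-126625600 on the minus strand (RefSeq, GRCm38.p6), with the match in capitals.
Nupr1: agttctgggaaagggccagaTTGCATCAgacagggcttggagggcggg

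The cytosolic aminoacyl-tRNA synthetases, which charge tRNAs with amino acids and are in part targets of ATF4, had a median of -0.09, with 4 of 18 lower at an unadjusted p under 0.05. Iars, the isoleucyl enzyme, was at 7.28, 7.52 and 7.84 in wild-type and 6.52, 7.15 and 7.24 in tatd-/- mice, without overlap (difference -0.46, adjusted p = 0.448). Rars and Mars1 had differences of -0.34 and -0.31. The unfolded protein response of the endoplasmic reticulum had a median of -0.16 over 23 genes, which was -0.04 without M78-1, and 1 member, the disulfide isomerase Pdia6, was lower at an unadjusted p under 0.05. Pdia6 was at 7.80, 7.88 and 8.04 against 7.39, 7.43 and 7.74, without overlap (difference -0.40, adjusted p = 0.332). The co-chaperone Dnajc3 had a difference of -0.24.

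Cytosolic chaperones had a median of -0.12 over 26 genes, -0.23 in males and 0.01 in females, and 4 were lower at an unadjusted p under 0.05. Hspa1b, the heat-inducible HSP70, was at 3.99, 4.26 and 4.96 in wild-type mice, at 3.51 to 4.03 in 5 tatd-/- mice and at 2.42 in M78-1 (difference -0.80, adjusted p = 0.428). Without M78-1 its difference was -0.58. Hspa2 did not overlap between the genotypes (difference -0.38), while the small heat shock protein Hspb8 and the chaperonin subunit Cct4 did (-0.63 and -0.27). The heat shock element, searched as GAANNTTC, which reads the same on both strands, was in 6.69% of all promoters and in 4 of 23 chaperones, and that of Hspa1b at chr17:34959315-34959362 (minus strand, RefSeq, GRCm38.p6) is shown with the match in capitals.
Hspa1b: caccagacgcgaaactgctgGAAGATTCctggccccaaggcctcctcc

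Other lists of protein and RNA metabolism had medians between -0.09 and -0.07. Ribosome biogenesis had a median of -0.07, and 4 of 33 genes were lower at an unadjusted p under 0.05. These include Polr1a, the largest subunit of RNA polymerase I, at 5.88, 6.08 and 6.38 in wild-type and 4.97, 5.60 and 5.79 in tatd-/- mice, and Wdr74, at 7.27, 7.48 and 7.59 against 6.90, 7.08 and 7.26. Neither overlapped between the genotypes, and the differences were -0.58 (adjusted p = 0.321) and -0.39 (adjusted p = 0.372), with -0.58 (adjusted p = 0.289) for the rRNA-modifying Tsr3. Proteasome subunits had a median of -0.07 (0.005 without M78-1) with 0 of 30 at an unadjusted p under 0.05, and Psma1 had the smallest p (difference -0.26). Genes of transport from the endoplasmic reticulum to the Golgi had a median of -0.09, with 2 higher and 3 lower of 37. Of these the SNARE Bet1l had a difference of -0.82 (-0.63 without M78-1) and the small GTPase Arf4 one of -0.38. Targets of p53 had a median of -0.14 over 21 genes (-0.05 without M78-1), with 3 lower, among them Cdkn1a and Sesn2. For ribosome biogenesis and the p53 targets the mean level of the list lay below the lowest wild-type array on 5 tatd-/- arrays. For transport to the Golgi it did so on 2 and for the proteasome on 1.

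Synaptic receptors and channels had medians between -0.04 and 0.09. The mean level of the list lay above the highest wild-type array on 4 tatd-/- arrays for the potassium and for the sodium channels. It did so on 3 for the glutamate receptors and for the calcium channels, and on 0 for the GABA and the monoamine and other receptors. M78-1 lay below the lowest wild-type array for each of these lists but the calcium channels. Glutamate receptors had a median of 0.09 with 0 of 20 at an unadjusted p under 0.05 (Grik2 0.21, Grm3 0.25). Without M78-1, 3 of the 20 were higher and the median was 0.12, and over all mice it was -0.09 in males and 0.19 in females. Among 11 GABA receptor subunits the median was 0.01 and 1 was lower. This was Gabra2, the alpha-2 subunit of the GABA-A receptor, at 8.95, 8.99 and 9.18 in wild-type and 7.33, 8.56 and 8.89 in tatd-/- mice. The genotypes were separate, and the tatd-/- values reached from M78-0 at 8.89 down to F77-3 at 7.33. The difference was -0.69 (adjusted p = 0.428), and -0.48 without F77-3. Gabrd, an extrasynaptic subunit, had a difference of 0.45.

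Voltage-gated potassium channels had a median of 0.02, and at an unadjusted p under 0.05 3 of 26 were higher (5 without M78-1) and 1 was lower. Kcna3 was at 5.74, 5.92 and 6.14 in wild-type and 5.06, 5.57 and 5.73 in tatd-/- mice (difference -0.45, adjusted p = 0.428), while Kcnh3 and the beta subunit Kcnab3 had differences of 0.50 and 0.44. Sodium channels had a median of 0.09, with 1 of 7 higher, the beta subunit Scn2b (0.37), and Scn4b had a difference of 0.32. Without M78-1 the median of the sodium channels was 0.20, and over all mice it was -0.08 in males and 0.20 in females. Calcium channels had a median of 0.07, with 2 of 17 higher (1 without M78-1), Cacna2d3 (0.26) and Cacng8 (0.30). Receptors for monoamines, acetylcholine, histamine and adenosine had a median of -0.04, with 1 of 26 higher and 2 lower. The serotonin receptor Htr5b was at 2.53, 3.17 and 3.62 against 1.52, 2.11 and 2.69 (difference -0.90, adjusted p = 0.213), and Htr2c, Drd5 and Adra1b had differences of -0.42, 0.43 and -0.38.

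Secreted organizers of synapses had members in both directions, and their median was 0.03. Of 20 measured, 2 were higher and 3 lower under the unadjusted threshold. Cbln2, a relative of Cbln4, was at 6.97, 7.18 and 7.55 in wild-type and 6.48, 6.65 and 6.76 in tatd-/- cortex. No array of 1 genotype reached into the other, and the difference was -0.60 (adjusted p = 0.0891). Lgi3 had a higher mean, at 6.97, 7.70 and 7.96 against 7.50, 8.27 and 8.64 (difference 0.64, adjusted p = 0.454), and C1ql1 a lower one (-0.34). Neuropeptides and prohormone processing were split as well, with 2 of 22 higher and 3 lower. Adcyap1, which encodes the peptide PACAP, was at 4.44, 4.76 and 5.13 against 3.55, 4.14 and 4.58 (difference -0.63, adjusted p = 0.295). Grp, gastrin-releasing peptide, had a difference of -0.54, while the granin Chga and the chaperone Scg5 had differences of 0.50 and 0.35.

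The remaining function lists had few members at an unadjusted p under 0.05. Connexins and pannexins had a median of 0.20, and 15 of 18 had a higher mean, against 46.1% of all probe sets. At that p only 1 was higher (Gjb5, 0.36) and 1 lower (Panx1, -0.28), and 4 of the 18 averaged below the background controls. Synaptic vesicle genes had a median of 0.01, with 0 of 31 at that p and 2 higher without M78-1 (Syt2 0.49, or 0.82 without M78-1). The nuclear genes of the respiratory chain had a median of -0.004 over 71 genes, with 3 higher, among them Ndufc2 (0.22), and 2 lower, among them Uqcrc2 (-0.43). Cholesterol synthesis had a median of 0.04 and 1 of 18 higher, the methylsterol monooxygenase Msmo1 (0.37). Interferon-stimulated genes had a median of -0.09, with 2 of 22 higher and 2 lower, for example Rsad2 (0.44) and Bst2 (-0.78). A list of 10 measured genes at loci that are known to vary in copy or sequence among mouse strains held Pisd-ps3, Entpd4, Mid1, Ccl21a and Ccl21b, of which Mid1 had a higher and the other 4 a lower mean at an unadjusted p under 0.05, and its mean level was below the lowest wild-type array on all 6 tatd-/- arrays. That list was written with these genes' values known, so its count is a description.

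Markers of cell types were read in the same way, since the dissection could hold other regions. Striatal medium spiny neurons had the highest median, 0.23 over 17 genes, 16 of which had a higher mean, with 3 higher at an unadjusted p under 0.05 and none below background. Over all probe sets 46.1% had a higher mean, and 2.39% were higher at that p. The mean level of that list ran from 6.40 (M75-2) to 7.56 (M75-0) in wild-type and from 7.05 to 7.48 in tatd-/- mice, so the tatd-/- arrays lay within the wild-type range. Ppp1r1b, the dopamine-regulated phosphatase inhibitor DARPP-32, was at 8.18, 8.69 and 8.77 against 8.81, 9.05 and 9.26, without overlap (difference 0.48, adjusted p = 0.372). Adcy5, Rasd2 and Lrrc10b had differences of 0.52, 0.47 and 0.38 and overlapped. Oligodendrocyte markers had a median of 0.18 over 21 genes with 2 higher, the myelin genes Mbp (0.34) and Cnp (0.40), and 5 higher without M78-1. The wild-type mice again spanned the tatd-/- mice in the mean level, from 6.27 in M75-2 to 7.08 in M75-0 against 6.55 to 6.86. Opalin and Ppp1r14a had differences of 0.46 and -0.31.

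The markers of cortex itself had medians between 0.01 and 0.13, against -0.02 over all probe sets. At an unadjusted p under 0.05, 2.39% of all probe sets were higher and 4.59% lower. Excitatory neurons had a median of 0.07 with 1 of 7 lower (Neurod6, -0.29; Emx1 0.28), and upper-layer neurons had 0.01 with 0 of 9 (Mdga1 -0.29). Deep-layer neurons had 0.13 with 3 of 14 higher, Bcl11b (0.34), Hs3st4 (0.40) and Nxph4 (0.43). Interneurons had 0.02 with 2 of 16 higher, Pvalb (0.46) and Reln (0.38), and 1 lower, Dlx2 (-0.32). Olfactory bulb and neuroblast markers had -0.15 with 3 of 17 lower, where Th, Pax6 and Dlx2 had differences of -0.75, -0.53 and -0.32. Their mean level was 3.87 to 4.83 in wild-type mice, 4.80 in M78-0 and 3.78 to 4.12 in the other 5 tatd-/- mice. Thalamic markers had a median of 0.07 with 1 of 6 higher and 1 lower (Lef1 0.50, Rgs16 -0.53), and hippocampal markers 0.11 with 0 of 7 (Dsp 0.28, near background).

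Among glia, astrocytes had a median of 0.09 with 1 of 16 higher (Acsbg1 0.28, Cldn10 0.33), oligodendrocyte precursors -0.11 with 2 of 9 lower (C1ql1, Matn4 -0.32) and microglia 0.01 with 0 of 19 (Olfml3 -0.34, or -0.10 without M78-1). Endothelial cells had -0.04 with 1 of 16 higher and 1 lower. The drug transporter Abcb1a of the blood-brain barrier was at 5.80, 6.26 and 6.50 in wild-type and 6.51, 6.58 and 6.82 in tatd-/- mice (difference 0.39, adjusted p = 0.475), and Pecam1 had a difference of -0.44. Mural cells had -0.01 with 2 of 12 higher (Abcc9 0.68, Myh11 0.53). Choroid plexus had 0.02 with 0 of 11 (Folr1 -0.25), meningeal fibroblasts -0.05 with 0 of 14 (Slc6a13 -0.45), red blood cells 0.20 with 1 of 4 higher (Alas2 0.48) and cardiomyocytes -0.01 with 1 of 8 lower. After quantile normalization or centring, the medians of the monoamine and other receptors, the respiratory chain, and the endothelial, mural and cardiomyocyte markers changed sign in at least 1 of these scalings, all lying within 0.05 of 0, and those of the other 44 lists kept theirs. Leaving out M78-1 also moved, by 1 gene each, the counts of the following lists by over 1.5 times. It gave 2 lower genes for the unfolded protein response and the nucleases, 1 for the proteasome, cholesterol synthesis, mural cells and oligodendrocyte precursors, and 0 for the thalamic markers. It gave 2 higher genes for the connexins and the endothelial cells, and 1 for the neurotrophins, the synthetases and the microglia. The part of these cell types in the differences of other genes was not tested.

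**Figure D5:**
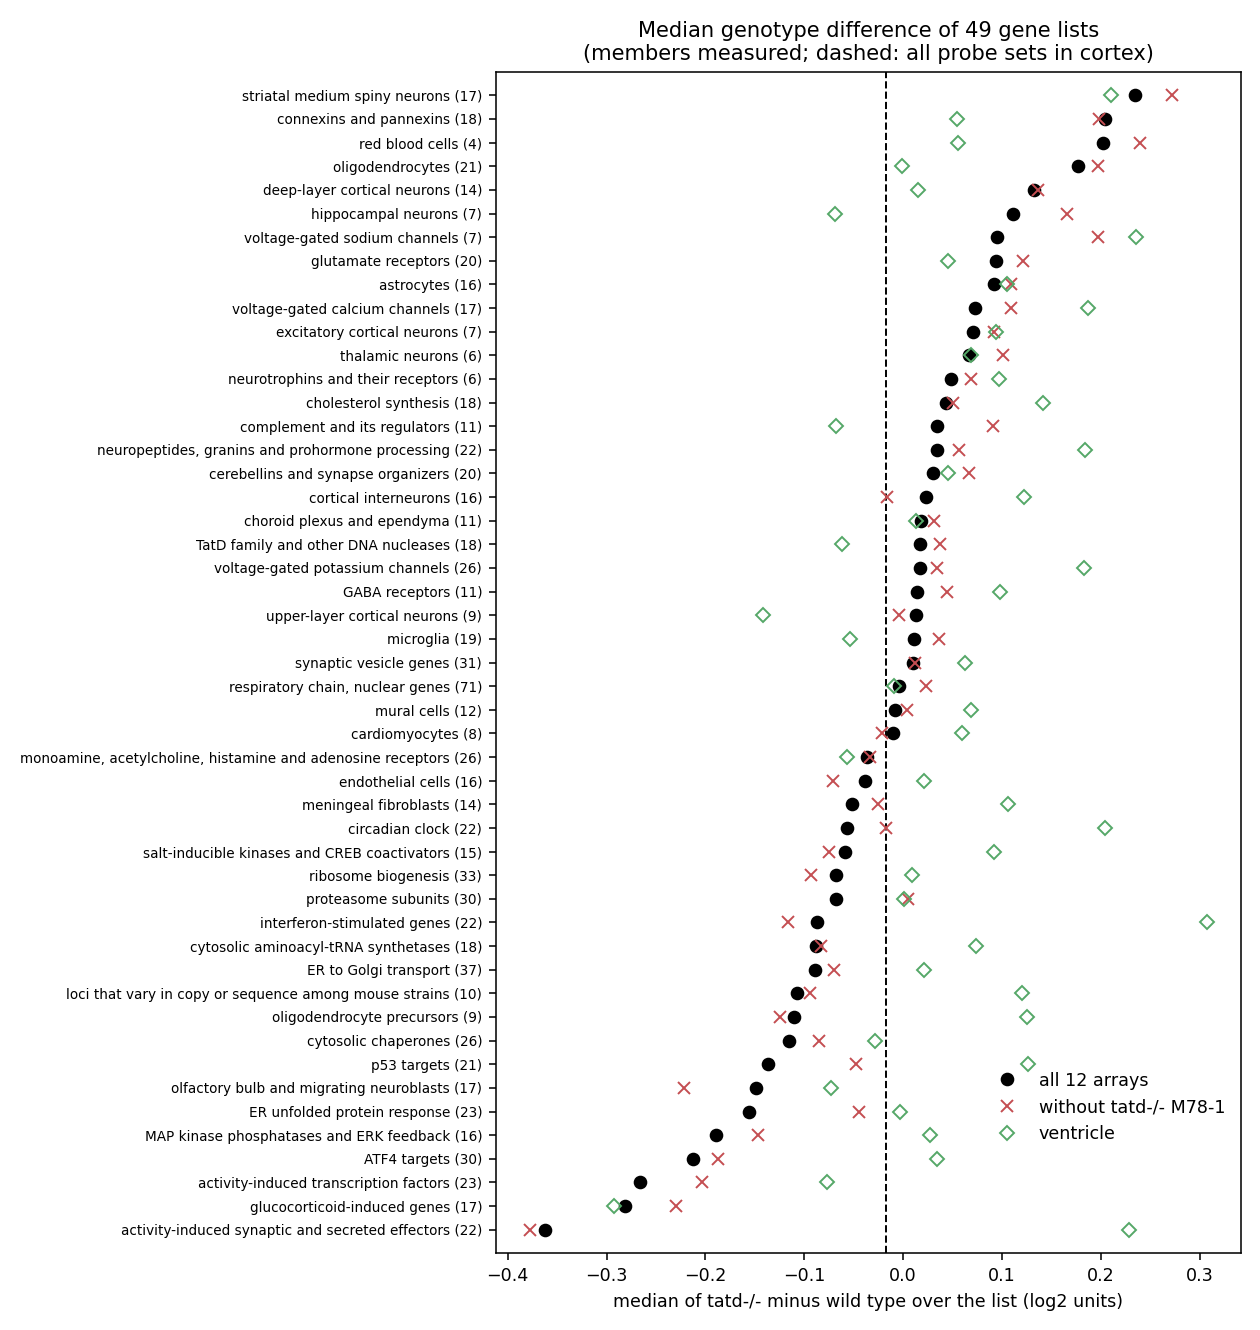
Median difference between the genotypes (tatd-/- minus wild type, log2 units, horizontal axis) of 49 gene lists in cortex (black circles), in cortex without M78-1 (red crosses) and in ventricle (green diamonds), with the number of measured genes in brackets and the median of all probe sets in cortex as a dashed line. The activity-induced effectors have the lowest cortex median (-0.36) and the striatal markers the highest (0.23).

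The difference between the genotypes was also compared between the sexes and between the tissues. For the difference between males and females within cortex, 0 probe sets passed the adjusted threshold (0%) and 858 had an unadjusted p under 0.05 (3.86%). For the difference between cortex and ventricle, over all 24 arrays, the threshold was passed by 3 probe sets (0.0135%), and an unadjusted p under 0.05 was seen in 2118 (9.54%). Each of the 3 had an adjusted p of 0.0385, and 0 passed with a variance trend and a robust fit. Hebp1, a heme-binding protein, was at 5.51, 5.65 and 5.78 in wild-type and 4.59, 5.04 and 5.28 in tatd-/- cortex, and its difference was -0.63 in cortex and 0.54 in ventricle. Afmid, an enzyme of tryptophan breakdown, had differences of -0.35 and 1.00, and the transcript E130304I02Rik of 0.52 and -0.87. None of the 3 was called within cortex, where their adjusted p-values were 0.0864, 0.626 and 0.45. For Pisd-ps3 and Entpd4 the difference between the tissues was -0.37 (adjusted p = 0.799) and -0.30 (adjusted p = 0.567). The median of the activity-induced effectors was -0.36 in cortex and 0.23 in ventricle, and that of the ATF4 targets -0.21 and 0.03, and the difference between the tissues was not tested for these lists.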

How the data were processed

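The authors hybridized RNA of 24 samples to Mouse Clariom S HT arrays and deposited log2 values made from the scanner files by RMA, whose version the sources used here do not give. RMA corrects background, quantile-normalizes arrays and summarises the probes of a probe set by median polish. Which arrays were normalized together is not stated. The table holds 29129 entries, of which 22206 are gene-level probe sets and 6923 were left out, among them 68 AFFX and 63 ERCC controls. Probe sets were named and placed through the platform annotation and the RefSeq genes of GRCm38.p6. They gave 1 symbol to 19572 probe sets (19505 distinct), and 2634 are unnamed here. Arrays have no read depth, and the number of arrays limits the precision.

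The 12 cortex arrays, grouped by the labels, entered a linear model of genotype alone (limma 3.58.1, R 4.3.3, moderated with eBayes). Its p-values were adjusted over 22206 probe sets by Benjamini and Hochberg's method, with 0.05 as the threshold. This was first tested on simulated data. Single genes were also tested with a two-sided exact permutation over 924 splits (smallest p 0.00216). The sex difference was a genotype by sex term, and the tissue difference a contrast over 24 arrays. The p-values measure the spread between these mice. The labels give a cortex and a ventricle array the same animal code, read here as the same mouse, and the consensus correlation of such pairs was -0.0137. The leading numbers of these codes differ between all wild-type and all tatd-/- mice, and between wild-type males and females. Their meaning is unknown here, and a litter or cage they might mark cannot be told apart from genotype or, in wild-type mice, from sex. Tables and figures were made with Python 3.11.15, pandas 2.3.3 and numpy 2.4.6.

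The arrays, the 49 gene lists (993 entries, 910 measured, 871 distinct genes) and the rules were chosen with earlier results of these data known. Named are Tatdn1, the genes called, the 10 higher and 10 lower genes of smallest p, at most 4 members of each list by smallest p, and the genes the study measured by RT-qPCR. A gene with several probe sets was read by the one of highest mean. Ccl21a, Gm13304, Fam205a2, Hebp1, Afmid and E130304I02Rik, and the other genes of the chromosome 4 stretch, were chosen after their values were seen. Kdm5d, Uty, Eif2s3y, Slc17a7, Tbr1 and Myh6 only check labels. Alternatives were quantile normalization of the cortex arrays, centring on the median, removal of the 30% dimmest probe sets, a sex term, limma's array weights, a robust fit with a variance trend, Wilcoxon's exact test, a fit of all 24 arrays, males or females alone, each mouse left out, the mouse as a random block and, for lists, the mean over the probe sets of a gene.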

Additional observations from a re-analysis of the deposited data

Results flagged for a closer look

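An array was singled out where its gap to the nearest of the other 5 of its group exceeded Dixon's limit for 6 values, a test that chance passes in about 1 of 20 groups. Of 372 groups of 6 tested, 44 held such an array, and 20 of these arrays were of the tatd-/- male M78-1 and 8 of the tatd-/- female F77-3. M78-1 was low for Bdnf (3.57, the others 4.80 to 5.18), Bet1l (2.76), Cbln4 (2.75), Cd59a (4.66, the others 5.86 to 6.23), Hspa1b (2.42), Hspb8 (2.39), Iars (6.52), Olfml3 (4.56), Per2 (3.96) and Syt2 (3.58), and high for C4b (5.61, the others 4.12 to 4.33), Gjb5 (3.04) and Notch2 (5.29). It was also low in the mean level of 7 lists, the neurotrophins and their receptors (5.75), the unfolded protein response (6.14, the others 6.56 to 6.67), the proteasome (7.04), GABA receptors (7.57), sodium channels (7.13), cerebellins and synapse organizers (6.37) and transport from the endoplasmic reticulum to the Golgi (6.75). The high background controls and low array weight of this mouse stand beside these values, and their part in them was not tested.

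F77-3 was high for Ccl21b (5.48, the others 2.80 to 3.39), Ccl21c (5.48), Fam205a2 (6.23), Gm10591 (6.18), Gm13304 (6.06), Gm3893 (7.28), Nr4a3 (7.14) and the list of loci that vary among strains (5.44). F77-2 was low for Entpd4 (8.28), Scg5 (8.89) and the DNA nucleases (3.08) and high for the meningeal fibroblast markers (5.58, the others 4.81 to 5.08). M78-0 was high for Cdkn1a (6.72), Pax6 (4.79) and the olfactory bulb markers (4.80) and low for Gabrd (4.86). F77-1 was low for Grik2 (6.53) and high for Grp (4.74), and M77-1 was low for Ptgs2 (4.34). Among wild-type mice, M75-0 was high for Cnp (9.24), M75-2 low for Cct4 (7.44), F76-2 low for Mars1 (5.001), and F76-1 low for Slc6a13 (4.09) and the neurotrophin list (6.17). The difference between the genotypes itself differed between cortex and ventricle for Hebp1 (-1.17), E130304I02Rik (1.39) and Afmid (-1.35).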

How the results depend on the processing

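The number of probe sets called was small and moved with the settings. Against 2 (0 higher and 2 lower), there were 4 after quantile normalization or centring (2 higher and 2 lower each), 8 with sex as a term (4 and 4), 11 with array weights (5 and 6), 6 with a variance trend and robust fit (3 and 3) and 34 with all 24 arrays in 1 fit (9 and 25). Males alone and females alone called 0, with 942 and 1480 probe sets at an unadjusted p under 0.05 against 1551. The exact Wilcoxon test called 0 (1421 at an unadjusted p under 0.05), but its smallest p of 0.00216 could not reach the adjusted threshold in this design, so it says nothing about stability. With 1 mouse left out, 1 to 16 were called, 0 to 2 higher and 1 to 16 lower, and 1221 to 1853 had an unadjusted p under 0.05. The lowest total was 1 without M75-0, M75-1, F76-2 or F77-1, and there were 5 without M78-1 and 16 without F77-3. The sex difference gave 0 calls, also with each mouse left out in turn, and 5 with the variance trend. The tissue difference gave 3 calls, 3 with the mouse as a replicate block and 0 with the variance trend. Named genes kept their direction under every setting but 2, Cd55 (0.10 in females alone) and Dnase1l2, a DNase with a difference of -0.35 (0.055 in males alone). Cd59a and Mid1 both passed the adjusted threshold after quantile normalization, centring, sex as a term, array weights, the variance trend, all 24 arrays and without M78-1, and Mid1 also without F76-1. Pisd-ps3 did not pass it in males or females alone, nor did Entpd4, which also failed it without 4 mice in turn.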
